A study of Mus musculus with 4 samples.

Results

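The fibrous sheath is the cytoskeletal sleeve of the sperm tail, and 10 genes for its scaffold and docking proteins were followed in haploid germ cells with and without Sox30, a transcription factor gene of the SOX family. The genes were taken by name, for what their proteins do: Akap3, Akap4, Akap14, Cabyr, Fscb, Ropn1, Ropn1l, Spa17, Fsip1 and Fsip2. Of these 10, 9 were found among the 22552 gene symbols of the expression tables, and no entry carried the symbol Fsip2, for which no value is given. All 9 reached a mean of at least 1 FPKM (mapped fragments per transcript length, relative to all mapped fragments of a library) over the libraries and were tested. Akap4 and Fscb reached it through the wild-type libraries alone.

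The cells were sorted by their Hoechst staining from testes of male mice aged 23 days, and the labels call them round spermatids, the haploid cells that have finished meiosis and not yet changed shape. Each of 2 libraries came from Sox30 knockout mice, with the background strain written as DBA/C58/ICR for library 1 and DBA/C60/ICR for library 2. Another 2 came from wild type mice, written as DBA/C57/ICR for library 1 and DBA/C59/ICR for library 2. The number in the strain label goes up by 1 from each sample to the next as deposited, so it may not name different strains, and it was not used. The labels say neither which part of Sox30 was removed nor that the 2 libraries of each genotype are from different animals. The p-values therefore reflect only how these libraries varied, and that variation may be technical.

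The fibrous sheath surrounds the axoneme and outer dense fibres over the principal piece of the tail and is laid down as the spermatid elongates. AKAP3 and AKAP4, A-kinase anchoring proteins, form its body and hold protein kinase A there. ROPN1 (ropporin), ROPN1L, SPA17 and CABYR carry a domain like that by which the kinase's regulatory subunit docks on such anchors. Glycolytic enzymes bound to the sheath supply energy along the tail.

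Sox30 itself stood at 1.46 and 3.16 FPKM in the knockout libraries and at 11.4 and 16.2 FPKM in the wild-type pair, with -2.19 as its log2 change (SE 0.43, limma adjusted p = 0.0219; 0.295 without wild-type library 1 and 0.357 without wild-type library 2). Read counts were not used here, so the absolute depth behind each value is unknown. Summed markers of round spermatids were between 921 and 1360 FPKM in the knockout and between 2163 and 2389 FPKM in the wild type. Of these markers 4 of 8 fell. For this and the marker counts that follow, 13.4% of all 9124 genes tested fell and 1.95% rose. Spermatocyte markers summed to between 439 and 564 FPKM in the knockout and between 467 and 488 FPKM in the wild type. Of these, 0 of 8 passed the test in either direction, but the sum hides opposite directions. Ccna1 was at 369 and 210 FPKM in the knockout libraries, against 163 and 192 FPKM in the wild-type libraries. Sycp1, Sycp2, Sycp3, Hormad1, Spo11 and Dmc1 had both knockout values below both wild-type values, and Piwil1 overlapped. Among all genes tested, 38.6% had both knockout values below and 22.2% had both above. Of 6 genes listed here under elongating spermatids 5 fell, from a list that summed to at most 50.2 FPKM in the knockout and at least 6989 FPKM in the wild type. The labels call all these cells round spermatids, so the name of the list does not mean that elongating cells were present. The summed markers of other cells stood lower in the knockout too, but not every gene did. Values overlapped between genotypes for Sox9 and Cldn11 of the Sertoli list and for Hba-a2, Hbb-b2, Emr1 and Cd68 of the blood and macrophage list. In the wild-type libraries Hba-a1, at 220 and 109 FPKM, made up most of the blood and macrophage sum. Clu, at 82.1 and 218 FPKM, made up most of the Sertoli sum. Blood and macrophage markers, of which 2 of 4 tested fell, summed to at most 10.1 FPKM in the knockout and at least 148 FPKM in the wild type. Leydig cell markers, of which 2 of 2 tested fell and 4 of 6 were listed at 0 in both knockout libraries, summed to at most 0.0674 FPKM in the knockout and at least 37.3 FPKM in the wild type. Sertoli cell markers, with 0 of 1 tested past the threshold and Amh at 0 in every library, summed to between 21.9 and 63.5 FPKM in the knockout and between 83.3 and 221 FPKM in the wild type. Spermatogonium markers, of which 3 of 3 tested fell, summed to at most 16.4 FPKM in the knockout and at least 62.2 FPKM in the wild type. Among the fallen markers Prm2, Stra8, Cyp17a1, Insl3 and Hbb-b1 met the minimum for testing through the wild-type libraries alone. The part of these cell markers in the results on the fibrous sheath was not tested, and in sorted bulk samples fewer cells of a type and less RNA per cell cannot be told apart.

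Of the 9 fibrous sheath genes found, 6 kept between 0% and 13.1% of their wild-type mean in Sox30 knockout cells and 3 stood at between 68.6% and 133% of it. Akap3, Akap4, Akap14, Cabyr, Fscb and Ropn1 fell, 0 rose, and Ropn1l, Spa17 and Fsip1 did not pass the test. Of all 9124 genes tested, 13.4% were lower in the knockout by the same rule, against 6 of the 9 fibrous sheath genes. The genes were chosen with earlier results of these data known, so this contrast is no independent test. The median log2 change was -3.60 over the 9 genes and -0.23 over all genes tested. It depends on the pseudocount: with 5 it was -1.96, against -0.12 over all genes, and with 0.1 it was -4.07, against -0.30. Both knockout values lay below both wild-type values for 7 of the 9 genes, which holds for 38.6% of all genes tested. These tests used limma on log2(FPKM + 1) with Benjamini-Hochberg adjustment over all genes tested and a threshold of 0.05. The calls rest on both wild-type libraries: without wild-type library 1 only Fscb passed and without wild-type library 2 none did, while the log2 changes of the other fallen genes moved by at most 0.26 between these fits and the full one. Of all 9124 genes tested, 386 fell without wild-type library 1 and 0 without wild-type library 2, with 0 rises in both fits and 1412 genes at an unadjusted p under 0.05 in the fit without library 2, so the loss of calls there is not particular to the fibrous sheath. Without knockout library 1 the fits called 3071 of all genes lower, and without knockout library 2 they called 1846.

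**Figure D1:**
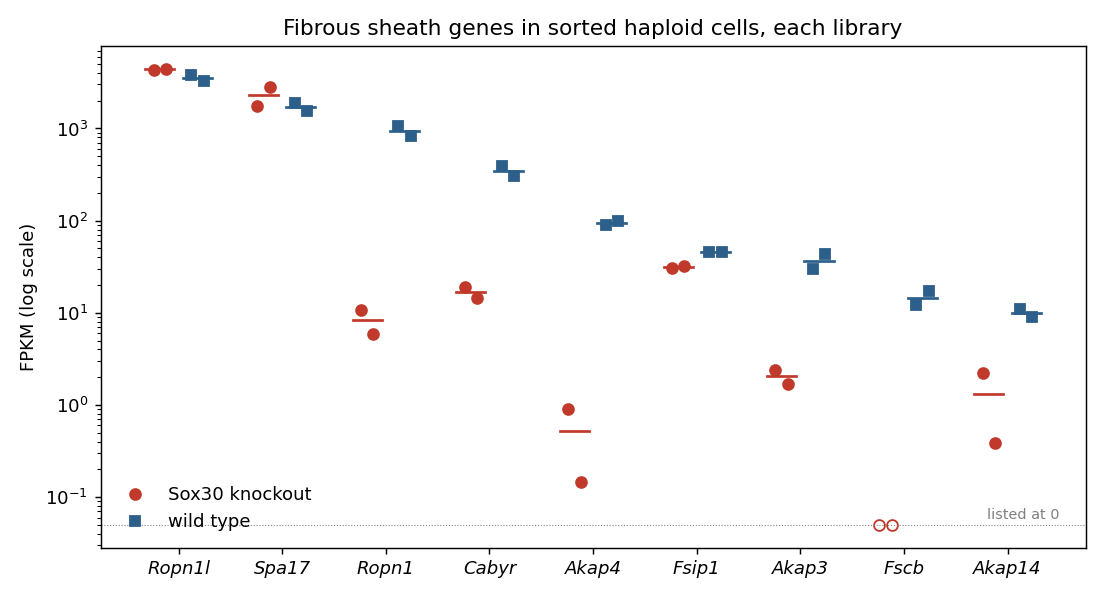
FPKM on a log scale of the 9 fibrous sheath genes found, in order of wild-type mean, with Sox30 knockout libraries as red circles on the left and wild-type libraries as blue squares on the right of each gene. Short lines are means of 2 libraries, and open circles are libraries in which Fscb was listed at 0. Ropn1l, Spa17 and Fsip1 stayed close between genotypes, though Fsip1 stood lower in both knockout libraries. The other 6 genes kept 13.1% or less of their wild-type mean.

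The anchoring proteins come first, as the body of the sheath. Akap4, the X-linked gene for its most abundant protein, was at 0.898 and 0.145 FPKM in knockout libraries 1 and 2, against 89.6 and 99.97 FPKM in wild-type libraries 1 and 2. The genotypes did not overlap: the lowest wild-type value was 99.8 times the highest knockout value. The mean fell to 0.522 ± 0.532 FPKM in the knockout, against 94.8 ± 7.36 FPKM in the wild type (SD, n = 2 each), its log2 change being -6.02 (SE 0.39, limma adjusted p = 5.99e-04). On that scale Akap4 had the fall of rank 104 among 9124 genes.

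Akap3, on chromosome 6, whose protein binds AKAP4 and enters the sheath before it, was at 2.41 and 1.69 FPKM in the knockout libraries, against 29.5 and 42.9 FPKM in the wild-type libraries. It kept 5.66% of the wild-type mean where Akap4 kept 0.550%. The log2 change was -3.60 (SE 0.37, limma adjusted p = 0.00222). Akap14, another X-linked anchoring protein gene, was at 2.24 and 0.386 FPKM in the knockout libraries, against 11.0 and 9.0 FPKM in the wild-type libraries. Its log2 change of -2.37 (SE 0.50, limma adjusted p = 0.0285) was the smallest of the 6 falls. With a pseudocount of 0.1 it was -3.23 and no longer passed (limma adjusted p = 0.0851), as was the case with no filter on low values (0.0916). An exon of another gene, Nkap, overlaps Akap14 by 49 bases on the opposite strand, and Nkap was at 0.379 FPKM at most in any library.

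The balance of the paralogues Akap4 and Akap3 turned over between genotypes. The ratio of Akap4 to Akap3 was 0.373 and 0.0860 in knockout libraries 1 and 2, against 3.03 and 2.33 in wild-type libraries 1 and 2. Akap3 was thus the higher of the pair in both knockout libraries and Akap4 in both wild-type libraries. The log2 ratio, with 1 added to each FPKM, differed by -2.42 between knockout and wild type. Its SD was 0.27 in the knockout and 0.26 in the wild type (n = 2 each). The added 1 draws the knockout libraries together, so their SD understates the spread between the ratios of 0.373 and 0.0860. An exact two-sided permutation test gave p = 0.333, the smallest that 2 against 2 libraries allow, and the same value after adjustment over both paralogue pairs. Akap4 at under 1 FPKM is sensitive to the pseudocount: the difference was -3.51 with a pseudocount of 0.1 and -1.65 with 5. The longest run of bases common to their annotated transcripts was 17, and no stretch of 25 bases was shared.

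Stretches just upstream of the starts of 4 genes that fell together and of the Ropn1 paralogues are printed to show what these genes do and do not share in sequence. They come from RefSeq on build GRCm38.p6, which differs from the build mm9 of the submitters' processing notes, and were matched by symbol. For Akap4 the first of 2 annotated starts was used. The stretches are the 120 bases before the annotated start, 5′ to 3′ in the direction of the gene. They lie at chrX:7067395-7067514 on the plus strand for Akap4, chr6:126852978-126853097 on the plus strand for Akap3, chr12:64474899-64475018 on the minus strand for Fscb and chrX:37168843-37168962 on the minus strand for Akap14. Those of the Ropn1 paralogues lie at chr16:34651091-34651210 on the plus strand for Ropn1 and chr15:31453690-31453809 on the minus strand for Ropn1l. Capitals mark the run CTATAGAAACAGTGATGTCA in Akap4 and Akap3, the word TGATGTCA in Fscb, and the word AACAATG, read as CATTGTT on the printed strand, in Akap4 and Akap14. The stretches of Ropn1 and Ropn1l hold none of these.
Akap4: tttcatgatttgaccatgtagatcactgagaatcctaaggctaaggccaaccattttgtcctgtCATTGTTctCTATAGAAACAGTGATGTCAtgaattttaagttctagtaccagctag
Akap3: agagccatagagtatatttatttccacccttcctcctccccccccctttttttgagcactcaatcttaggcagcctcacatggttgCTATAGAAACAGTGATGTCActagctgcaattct
Fscb: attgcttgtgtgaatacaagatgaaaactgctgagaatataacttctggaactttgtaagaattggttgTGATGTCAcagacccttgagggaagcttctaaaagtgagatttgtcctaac
Akap14: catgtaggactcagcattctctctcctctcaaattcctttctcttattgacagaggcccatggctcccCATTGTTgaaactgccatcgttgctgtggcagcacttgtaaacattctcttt
Ropn1: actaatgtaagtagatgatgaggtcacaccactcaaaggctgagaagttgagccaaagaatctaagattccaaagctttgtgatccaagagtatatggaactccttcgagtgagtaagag
Ropn1l: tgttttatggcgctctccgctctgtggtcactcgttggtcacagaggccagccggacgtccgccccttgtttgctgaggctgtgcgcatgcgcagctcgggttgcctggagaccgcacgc

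Akap3 and Akap4 share a run of 20 bases that ends in TGATGTCA. It spans 34 to 15 bases before the start of Akap3 and 47 to 28 bases before the first of 2 annotated starts of Akap4. Of 32851 RefSeq windows (250 bases before to 50 after a start) only 2 hold it on either strand. These are the window of Akap3 and the first of the 2 windows of Akap4. Among the other pairs of windows from different fibrous sheath genes the longest common run, on either strand, was 12 bases. The run and its word TGATGTCA were picked after the sequences were seen. The word is in 3.62% of all windows and in 3 of the 10 windows of the fibrous sheath genes. These are windows of Akap3, with a second copy across the start itself, Akap4 and Fscb. Akap3 and Akap4 hold the word because it is part of their shared run. The count of 3 therefore cannot be set against the 3.62% as a test of enrichment.

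The other words were searched on both strands in those 10 windows, which cover 8 of the 10 genes and include a second window for Akap4 and for Spa17. Every word found for Akap4 was in its first window. Cabyr and Fsip1 had no window in the table. The SOX core ACAAT was in 3 of the 10 windows, of Akap4, Akap14 and Ropn1l, where 31% of all windows hold it. The longer SOX word AACAATG, which contains it, was in the windows of Akap4, with 2 copies, and Akap14, and in 3.78% of all windows. The cAMP response element TGACGTCA was in 0 of 10 and in 1.79% of all windows, and TGACG was in that of Fsip2 and in 20.8% of all windows. A word is a match of letters and no measured binding.

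Transcripts for proteins with the docking domain parted most widely. Ropn1, for ropporin, which binds AKAP3, was at 10.7 and 5.90 FPKM in knockout libraries 1 and 2, against 1072 and 820 FPKM in wild-type libraries 1 and 2. It kept 0.880% of the wild-type mean, and every wild-type value was at least 76.3 times every knockout value. Its rank in abundance was 3651 and 4203 among 22552 symbols in the knockout libraries, against 82 and 95 in the wild-type libraries. The log2 change of -6.70 (SE 0.37, limma adjusted p = 4.80e-04) was the largest of the fibrous sheath genes with a pseudocount of 1. With 0.1 it was -6.86, smaller than the -7.58 of Akap4, which also kept less of its wild-type mean, 0.550%.

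Ropn1l, for the related protein that also binds AKAP3 and whose counterpart in Chlamydomonas is a radial spoke protein, was at 4332 and 4445 FPKM in the knockout libraries, against 3774 and 3279 FPKM in the wild-type libraries. It ranked 11 and 18 in the knockout libraries and 9 and 8 in the wild-type libraries, so it was among the most abundant transcripts of either genotype. Both knockout values were above both wild-type values, which holds for 22.2% of all genes tested, but the log2 change of 0.32 (95% interval -0.31 to 0.95) did not pass (limma adjusted p = 0.438). In this fit the interval leaves out any fall of 2-fold, but its width depends on the setting. The SE was 0.26 here, 0.53 after median-ratio scaling and 0.58 after a correction for GC content. The log2 change was 0.54 after that scaling and 0.18 after that correction. After quantile normalization, which moved the median change of all genes to 0.17, the log2 change of Ropn1l was -0.45.

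The paralogues Ropn1 and Ropn1l were of like order in wild-type cells and far apart in knockout cells. Ropn1l was 403 and 753 times as high as Ropn1 in knockout libraries 1 and 2, against 3.52 and 4.0 times in wild-type libraries 1 and 2. The log2 ratio of Ropn1 to Ropn1l, with 1 added to each FPKM, averaged -8.93 ± 0.57 in the knockout and -1.91 ± 0.13 in the wild type (SD, n = 2 each). The difference of -7.02 ranged from -7.42 to -6.62 with any 1 library left out, and was -6.24 after quantile normalization. An exact two-sided permutation test gave p = 0.333, again the smallest possible, and 0.333 after adjustment over both pairs. No stretch of 25 bases was common to their annotated transcripts and the longest common run was 14 bases. Transcript GC content was 47.2% for Ropn1 and 55.5% for Ropn1l, and after a correction for GC content, chosen after seeing the data, the difference was -6.50.

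**Figure D2:**
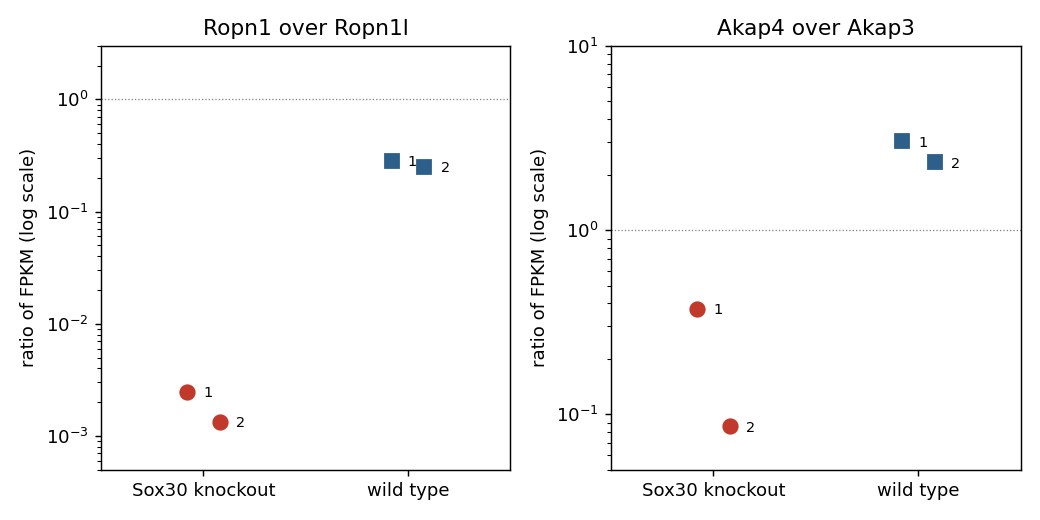
Ratio of FPKM between paralogues in each library on log scales, Ropn1 over Ropn1l on the left and Akap4 over Akap3 on the right, with Sox30 knockout libraries as red circles, wild-type libraries as blue squares and the library number beside each point. The dotted line marks equal levels. Both ratios were lower in both knockout libraries, and Akap4 over Akap3 crossed the line of equal levels.

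Spa17, on chromosome 9, for a sperm surface and tail protein that is also found in motile cilia of other tissues, was at 1772 and 2789 FPKM in knockout libraries 1 and 2, against 1895 and 1532 FPKM in wild-type libraries 1 and 2. The genotypes overlapped, with the highest and the third highest value in the knockout. Its log2 change was 0.38 (95% interval -0.42 to 1.19, limma adjusted p = 0.465) and -0.37 after quantile normalization. An exon of Siae overlaps Spa17 by up to 250 bases on the opposite strand, and Siae was at 2.07 FPKM at most.

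Transcripts for the calcium-binding branch of the sheath fell. Cabyr, on chromosome 18, whose protein binds calcium and is phosphorylated as sperm gain the capacity to fertilize, was at 19.2 and 14.3 FPKM in knockout libraries 1 and 2, against 387 and 308 FPKM in wild-type libraries 1 and 2. Every wild-type value was at least 16.1 times every knockout value. The log2 change was -4.30 (SE 0.31, limma adjusted p = 7.80e-04), and among the 5 fallen genes with a knockout value Cabyr had the closest knockout libraries, with a ratio of 1.34. Fscb, for a protein named for binding CABYR in the sheath, was listed at 0 in both knockout libraries and at 12.2 and 17.1 FPKM in the wild-type pair. It fell (limma adjusted p = 0.00143). No fold is given for Fscb, since its fitted change depends on the pseudocount.

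Fsip1, on chromosome 2, found in human as a partner of AKAP4, was at 30.3 and 31.8 FPKM in the knockout libraries, against 45.5 and 45.1 FPKM in the wild-type libraries. The groups did not overlap and the values within each genotype were close, yet the change was small: the knockout kept 68.6% of the wild-type mean. The log2 change of -0.53 (95% interval -1.23 to 0.17) did not pass (limma adjusted p = 0.259). An exon of the transcript Gm29232 on the same strand overlaps that of Fsip1 by up to 133 bases.

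**Figure D3:**
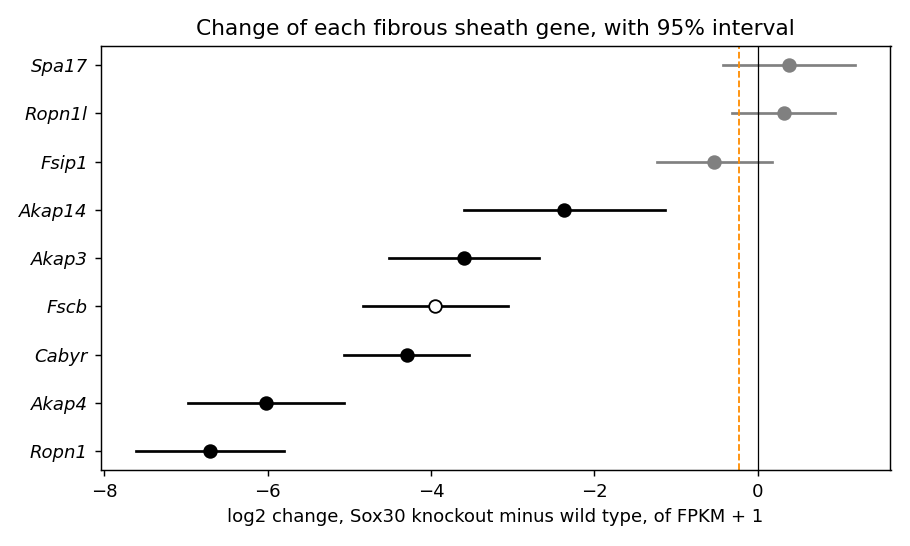
Log2 change of FPKM + 1, Sox30 knockout minus wild type, for the 9 fibrous sheath genes with its 95% interval from limma. Black genes passed an adjusted p of 0.05 and grey genes did not, the open circle is Fscb, listed at 0 in both knockout libraries so that its position depends on the pseudocount, and the dashed line is the median of all genes tested at -0.23. The intervals of Spa17, Ropn1l and Fsip1 cross 0 and those of the other 6 genes lie below it.

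The order of the genes by FPKM, a level per transcript length, changed with genotype. In knockout cells the order was Ropn1l, Spa17, Fsip1, Cabyr, Ropn1, Akap3, Akap14 and Akap4, with Fscb at 0, and the range of Akap14 overlapped those of both Akap3 and Akap4. In wild-type cells it was Ropn1l, Spa17, Ropn1, Cabyr, Akap4, Fsip1, Akap3, Fscb and Akap14, and no neighbours in that order overlapped between their 2 libraries. Fsip1 thus took the third place in the knockout and the sixth in the wild type. As a share of all FPKM of a library, the 9 genes made up 1.03% and 1.08% in the knockout libraries, against 1.29% and 1.23% in the wild-type libraries. Their summed FPKM overlapped, at 6170 and 7288 in the knockout libraries against 7315 and 6153 in the wild-type libraries. Ropn1l and Spa17 made up 98.9% and 99.3% of that sum in the knockout libraries and 77.5% and 78.2% in the wild-type libraries. The other 7 genes together came to 65.8 and 54.3 FPKM in the knockout libraries and to 1646 and 1342 FPKM in the wild-type libraries.

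The knockout libraries were not alike in how much they kept. Each of the 5 fallen genes with a knockout value was higher in knockout library 1 than in library 2, as were 68.0% of the 947 genes called lower that had a value in either. The ratio of library 1 to library 2 was 6.17 for Akap4 and 5.81 for Akap14, the genes at the lowest levels, and 1.82 for Ropn1, 1.42 for Akap3 and 1.34 for Cabyr. Within the wild type the widest ratio of one library to the other among the 9 genes was 1.45, for Akap3.

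Transcripts for enzymes and signalling partners that dock on the sheath included some nearly lost from knockout cells and some that stayed very abundant. The list was drawn up with earlier results of these data known, and 23 of its 24 genes were tested. Of these 6 fell, 1 rose and 16 did not pass, where 13.4% of all 9124 genes tested fell and 1.95% rose. The median log2 change of the list was -0.67. The number that fell was 3 without wild-type library 1, 0 without wild-type library 2 and 11 without knockout library 1, beside 386, 0 and 3071 of all 9124 genes in those fits. After the correction for GC content the median of the list was -0.25 and that of all genes 0.02. Txndc2, a thioredoxin of the developing sheath, fell to 0 and 0.0367 FPKM in the knockout libraries, against 66.9 and 55.0 FPKM in the wild-type libraries (limma adjusted p = 4.80e-04). Gapdhs, the sperm glyceraldehyde-3-phosphate dehydrogenase, was listed at 0 in both knockout libraries and at 54.9 and 34.7 FPKM in the wild-type pair (limma adjusted p = 7.54e-04). Gsk3b, a kinase, and Adcy10, the soluble adenylyl cyclase that makes cAMP in sperm, fell with log2 changes of -3.55 (SE 0.44, limma adjusted p = 0.00398) and -3.41 (SE 0.44, limma adjusted p = 0.00463). Txndc2, Gapdhs, Gsk3b and Adcy10 had knockout means under 1 FPKM and met the minimum for testing through the wild-type libraries alone.

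The other falls, named after their values were seen, were Aldoart2, a sperm aldolase, and Prkar2a, for a regulatory subunit of kinase A. Prkar2a was listed at 0 in both knockout libraries and at 5.07 and 4.6 FPKM in the wild-type pair (limma adjusted p = 0.00404). Prkar2a, too, met the minimum for testing through the wild-type libraries alone. The other regulatory subunit genes, Prkar1a, Prkar1b and Prkar2b, likewise named after their values were seen, did not pass. Prkar1a, the most abundant, was at 146 and 127 FPKM in the knockout libraries, against 107 and 127 FPKM in the wild-type libraries (limma adjusted p = 0.625). The gene that rose was Rhpn1, for the rhophilin that ropporin binds, also named after its values were seen. Rhpn1 was at 20.1 and 10.9 FPKM in the knockout libraries, against 2.23 and 4.09 FPKM in the wild-type libraries, its log2 change being 1.96 (SE 0.46, limma adjusted p = 0.0389), and 1.95% of all genes tested rose by the same rule. The call on Rhpn1 was lost with a pseudocount of 0.1 (limma adjusted p = 0.0661), with no filter on low values (0.0948), with the library number as a replicate block (0.0590), without wild-type library 1 (0.394) and without wild-type library 2 (0.335). Gstm5, a glutathione transferase, and Ldhc, the germ cell lactate dehydrogenase, were the most abundant genes that did not pass. Gstm5 stood at 6521 and 7192 FPKM in the knockout libraries against 4627 and 3543 FPKM in the wild-type libraries (limma adjusted p = 0.130), and Ldhc at 5186 and 5056 FPKM in the knockout libraries against 5003 and 4016 FPKM in the wild-type libraries (limma adjusted p = 0.659).

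Transcripts for anchoring proteins outside the sheath were mostly at low levels. Of 13 other AKAP genes 6 were tested and 4 of these did not pass, while 2 fell and 0 rose. By the same rule 13.4% of all genes tested fell. The median log2 change of the list was -0.87. The number that fell was 1 without wild-type library 1, 0 without wild-type library 2 and 4 without knockout library 2, beside 386, 0 and 1846 of all 9124 genes. The median of the list was -0.37 after quantile normalization, -0.36 with no filter on low values and -0.48 with a pseudocount of 5. Akap1, which anchors the kinase at mitochondria, fell to 0.0438 and 0 FPKM in the knockout libraries, against 8.01 and 16.8 FPKM in the wild-type libraries (limma adjusted p = 0.00375). Akap1 met the minimum for testing through the wild-type libraries alone. Akap10 was at 4.67 and 4.70 FPKM in the knockout libraries, against 14.0 and 15.6 FPKM in the wild-type libraries. The log2 change of Akap10 was -1.47 (SE 0.33, limma adjusted p = 0.0356), a call lost under 8 of 13 other settings. Akap8l and Akap12, the most abundant of those that did not pass, had log2 changes of 0.26 and -0.82 (limma adjusted p = 0.664 and 0.243).

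Among outer dense fibre and tektin genes, which build the neighbouring structures of the tail, 12 were tested, of which 4 fell and 0 rose. By the same rule 13.4% of all genes tested fell. The median log2 change of the list was -0.51. The number that fell was 1 without wild-type library 1 and 0 without wild-type library 2, beside 386 and 0 of all 9124 genes. Odf3 had the largest fall, at 1.90 and 0 FPKM in the knockout libraries, against 260 and 216 FPKM in the wild-type libraries (limma adjusted p = 9.14e-04). Odf3b was listed at 0 in both knockout libraries, and Odf3 and Odf3b met the minimum for testing through the wild-type libraries alone. Tekt5 and Odf3l1 fell with log2 changes of -3.04 (SE 0.74, limma adjusted p = 0.0451) and -2.07 (SE 0.47, limma adjusted p = 0.0372). The calls on Tekt5 and Odf3l1 were lost at 0.1 as pseudocount (limma adjusted p = 0.105 and 0.0658), with no filter (0.130 and 0.107) and without either wild-type library. The log2 change of Tekt5 was -4.17 without knockout library 1 and -1.91 without knockout library 2. Odf2 and Tekt1, the most abundant of those that did not pass, had log2 changes of 0.21 and -0.33 (limma adjusted p = 0.718 and 0.517). Whether these lists differ from the fibrous sheath genes was not tested.

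**Figure D4:**
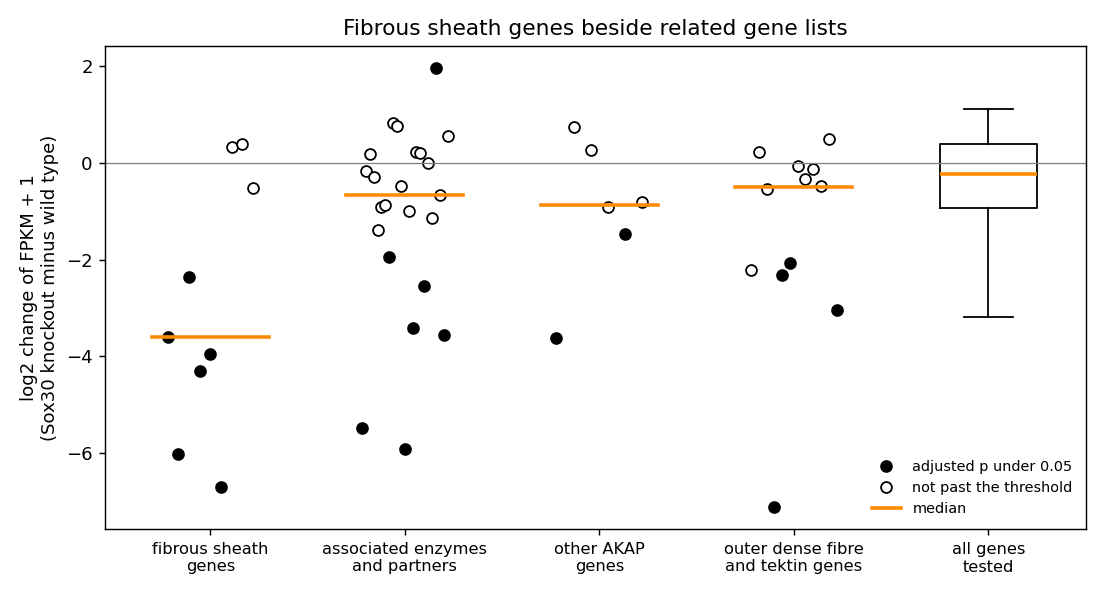
Log2 change of FPKM + 1, Sox30 knockout minus wild type, of each tested gene of the fibrous sheath genes and of 3 related lists, filled where an adjusted p under 0.05 was reached, with the median as an orange line. The box shows the quartiles of all 9124 genes tested, with whiskers at percentiles 5 and 95. The fibrous sheath median lies at -3.60, and the other lists have medians between -0.87 and -0.51.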

How the data were processed

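RNA of 4 libraries was analysed, 2 of Sox30 knockout and 2 of wild-type haploid cells, grouped and numbered by their sample titles. The authors deposited FPKM for each library. Per the labels' protocols, an NEBNext Ultra kit was used for library construction. TopHat2 2.0.6, Cufflinks 2.0.2, Cuffdiff and build mm9 are named, per the submitters' processing notes; what each did, the annotation and any use of strand were not given in the sources used here. FPKM depend on the transcript models and carry no depth, so no counting intervals are given.

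Each table held 23021 entries, and those of 259 repeated symbols were summed, leaving 22552 symbols. Genes with a mean of at least 1 FPKM over the 4 libraries, 9124 in all, were tested on log2(FPKM + 1), a scale that understates the change of low genes. FPKM were not rescaled. The test was limma 3.58.1 in R 4.3.3, with genotype as the only term, empirical Bayes moderation with a mean-variance trend (2 residual and 3.84 prior degrees of freedom), two-sided, with Benjamini-Hochberg adjustment over all genes tested. SE and 95% intervals come from that fit. The fit was tested on simulated data. Paralogue ratios were compared with an exact permutation test over libraries.

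The 10 fibrous sheath genes, the 3 related lists and the 7 marker lists were chosen with earlier results of these data known. Named from the related lists were up to 4 genes past the threshold with the largest change and the 2 of highest mean FPKM that did not pass; others are marked. Nme8 was matched by its older symbol Txndc3. The marker Rhox5 was not found. Settings tried were pseudocounts of 0.1 and 5, no filter (genes above 0 in any library), a minimum mean of 5 FPKM, quantile normalization, median-ratio scaling, dropping each library and the library number as a replicate block. A lowess GC correction (span 0.3) and a crossed block were chosen after seeing the data. Where a genotype kept a single library, that library was assumed to vary like those of the other genotype. Chromosomes, overlaps, transcript GC content and shared runs come from GENCODE M21, matched by symbol, and upstream sequences from RefSeq on GRCm38.p6.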

Additional observations from a re-analysis of the deposited data

How the results depend on the processing

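The 6 falls among the fibrous sheath genes were 5 with a pseudocount of 0.1 or no filter on low values, where Akap14 did not pass, and 6 with a pseudocount of 5, a mean FPKM of at least 5, either rescaling or the GC correction. With any 1 library left out they ranged from 0 to 6, and rises stayed at 0; a wild-type library left out leaves 1 residual degree of freedom, from the knockout pair. Without each library in turn the change of Sox30 ranged from -2.57 to -1.81; with no filter it was -2.19 (limma adjusted p = 0.0660). The difference between Ropn1 and Ropn1l ranged from -7.42 to -6.62 and that between Akap4 and Akap3 from -2.62 to -2.23. The counts of falls ranged from 0 to 11 among the enzymes and partners, from 0 to 4 among other AKAP genes and from 0 to 5 among outer dense fibre and tektin genes, and rises in these lists from 0 to 2, 0 to 0 and 0 to 1. Depth is unknown, so values under 1 FPKM carry no counting error here.

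The rise among enzymes and partners became 0 with a pseudocount of 0.1 and with no filter. Falls of other AKAP genes were 1 with a pseudocount of 0.1, no filter, median-ratio scaling, quantile normalization or the GC correction, which also gave 1 rise, and those of outer dense fibre and tektin genes were 2 with a pseudocount of 0.1 or no filter. The direction of genes that did not pass turned under quantile normalization for Ropn1l (-0.45), Spa17 (-0.37), Ldhc (-0.60) and Odf2 (-0.032). With each library left out, the change of Odf2 ranged from -0.10 to 0.53 and that of Akap8l from -0.10 to 0.62, and the GC correction brought Akap8l to -0.066. The median change of all genes was -0.23, against -0.05 after median-ratio scaling, 0.17 after quantile normalization and 0.02 after the GC correction. The share of calls that were falls was 87.3%, against 62.5% after quantile normalization. The cause of these shifts was not tested.

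The sample titles do not say whether libraries of the same number were prepared together. The deviations of libraries 1 from their group means had r = -0.20 across 9124 genes, which are not independent replicates. This single correlation cannot decide whether the libraries were paired. With the replicate block 6 fibrous sheath genes fell, 0 enzymes and partners rose and 1 other AKAP gene fell; 1056 of all genes fell and 82 rose. With crossed numbers, chosen after seeing the data, these were 6, 2 and 2, and 1416 fell and 390 rose.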
